A study of Homo sapiens with 12 samples.

Results

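The genes that distinguish LB cells from A549 cells without any drug are described here, beyond the surfactant genes: transcription factors, receptors, transporters and secreted factors. Every gene averaging 1 TPM or more over the 6 vehicle-treated libraries, 3 of each line, was taken. TPM is a length-corrected share of a library's transcripts. The filter left 13999 of the 57152 genes with a value. Among them were 811 transcription factors, 287 receptors, 388 transporters and channels, and 317 secreted factors, or 1800 genes in the 4 classes (5 symbols belong to more than 1 class), out of 3837 class members in the table. The classes were drawn up from gene symbols in 59 lists, and members were not checked for where their protein is found. The secreted class thus also holds proteins that are not secreted factors, such as the hyaluronan synthases HAS2 and HAS3 and the intracellular proteoglycan SRGN. At the edge of the filter, HOXA10-AS, TGM1 and AC000093.1 had a mean of 1.0 TPM and were kept, whereas TMEM63C and FMO4 (0.9967 TPM) and AC092651.2 (0.9983 TPM) were not.

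The study sequenced polyadenylated RNA from 12 libraries, 3 in each of 4 groups, 2 of which were LB cells given amiodarone, with or without a cyclodextrin. Only the vehicle groups are compared here. The A549 group was the human lung adenocarcinoma line A549, given 0.1% DMSO for 24 h, and the LB group was the LB line given the same vehicle for the same time. Both lines were grown in RPMI with 10% serum, and neither group received amiodarone or cyclodextrin. The source given for the LB libraries is A549 cells, but how LB cells were obtained, and whether they are 1 clone, is not stated in these sources. Nothing in the labels says that the 3 libraries of a group came from separate cultures. The p-values therefore reflect only how the libraries spread within all 4 groups, drug-treated ones included, and that spread may be technical.

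A549 is commonly described as carrying features of the alveolar type II cell, the surfactant-secreting cell of the alveolus, together with a gene programme shared with gut and liver. Levels of markers of these cell types in these libraries are given below. Transcription factors of the endoderm (such as the HNF4, FOXA and GATA families) set such programmes. Receptors and the ligands that bind them determine which signals a line can send and receive, transporters set what crosses its membranes, and secreted matrix proteins and protease inhibitors make up the surface on which it grows.

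No library stood apart. Across the genes tested, libraries of 1 line correlated at 0.984 to 0.987 and libraries of different lines at 0.953 to 0.959. Each library's TPM values add up to almost the same total (999449 to 999632 in these 6), so the depth behind a value is unknown and a large rise of some genes lowers all others a little. The share of mitochondrially encoded transcripts overlapped between the lines (6.27% to 9.19%). In A549 replicate 2, 7 class members were at least 2-fold above both other A549 libraries: AXL, C4BPB, CCL2, CPA4, FOSL1, IL32 and KLF2. Alveolar type II markers summed to 101–106 TPM in the A549 libraries and 1443–1605 TPM in the LB libraries. Of the 7 markers tested, the 4 past the test were the surfactant genes SFTPB, SFTPC, SFTPD and ABCA3. NAPSA, LPCAT1 and ETV5 did not pass (adjusted p = 0.559, 0.753 and 0.569). Of the 12 markers, 5, among them SFTPA1, SFTPA2 and LAMP3, stayed under 1 TPM in all 6. The 10 hepatocyte and gastrointestinal markers summed to 4.32–5.82 TPM in A549 and 5.59–8.18 TPM in LB. Of these, 6, among them ALB, APOA1 and CDX2, stayed under 1 TPM in all 6 libraries, and neither of the 2 tested passed. Endothelial markers summed to at most 0.63 TPM. The 8 fibroblast markers summed to 11.9–16.7 TPM in A549 and 15.2–18.2 TPM in LB: COL1A1 (4.13 ± 0.821 to 8.38 ± 0.241) and LUM (0.27 ± 0.151 to 2.44 ± 0.506) rose, THY1 (9.19 ± 1.07 to 5.26 ± 1.34) fell (mean ± SD, n = 3; adjusted p at most 0.0131), DCN was at 0 and the other 4 stayed under 1 TPM. The 7 leukocyte markers summed to 7.62–8.11 TPM in A549 and 3.71–6.33 TPM in LB. CD14 fell (4.76 ± 1.48 to 2.51 ± 0.407, adjusted p = 0.0239) and ITGAM did not pass (2.33 ± 1.42 and 1.61 ± 0.636, adjusted p = 0.454), while CD3E was at 0 and PTPRC and LYZ stayed under 1 TPM and CD79A reached 1.01 TPM. The THY1 call was lost without LB replicate 3 (log2 difference -0.55 to -0.86 without 1 library, adjusted p up to 0.0576), and the CD14 call without A549 replicate 1 or 3 or LB replicate 2 or 3 and with no filter on low values (-0.56 to -0.92, adjusted p up to 0.0891 without 1 library).

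Differences below are LB minus A549 of log2(TPM + 1), a scale that compresses differences between low values. A gene "rose" or "fell" where its level in LB was higher or lower with a Benjamini-Hochberg adjusted p of at most 0.05 from limma over all 13999 genes. Of these, 4563 passed (32.6%), 1935 higher in LB (13.8%) and 2628 lower (18.8%), with a median difference of -0.04. The counts given per list below have these shares as their background. Under median-of-ratios scaling the balance turned, with 2340 higher and 2192 lower, and under quantile normalization with 2420 and 2264. Higher in LB by at least 2-fold were 281 genes (2.01%), and lower 424 (3.03%). The 3 libraries of each line did not overlap for 2539 genes higher in LB (18.1%) and 3598 lower (25.7%). In this bulk RNA, fewer cells expressing a gene and less of its RNA per cell cannot be told apart. Among the 317 secreted factors, 197 passed (62.1%), 88 higher and 109 lower. Of the 287 receptors, 75 rose and 75 fell (52.3%). Of the 388 transporters, 87 rose and 71 fell (40.7%), and of the 811 transcription factors, 140 rose and 116 fell (31.6%). The share among genes outside the classes was 31.2%. At least 2-fold differences made up 5.04% of all genes, 5.06% of transcription factors, 10.3% of transporters and 17.1% of receptors. Secreted factors held the largest share, with 45 higher and 50 lower of 317. The median size of the difference was 0.22 for transcription factors and 0.56 for secreted factors, against 0.20 for all genes. The filter is a mean over both lines, so a gene expressed in only 1 line can pass it through that line. Below it lay 663 of 980 secreted factors in the table, 512 of 799 receptors, 428 of 816 transporters and 436 of 1247 transcription factors. How far the filter shaped the shares of the classes was not tested.

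**Figure D1:**
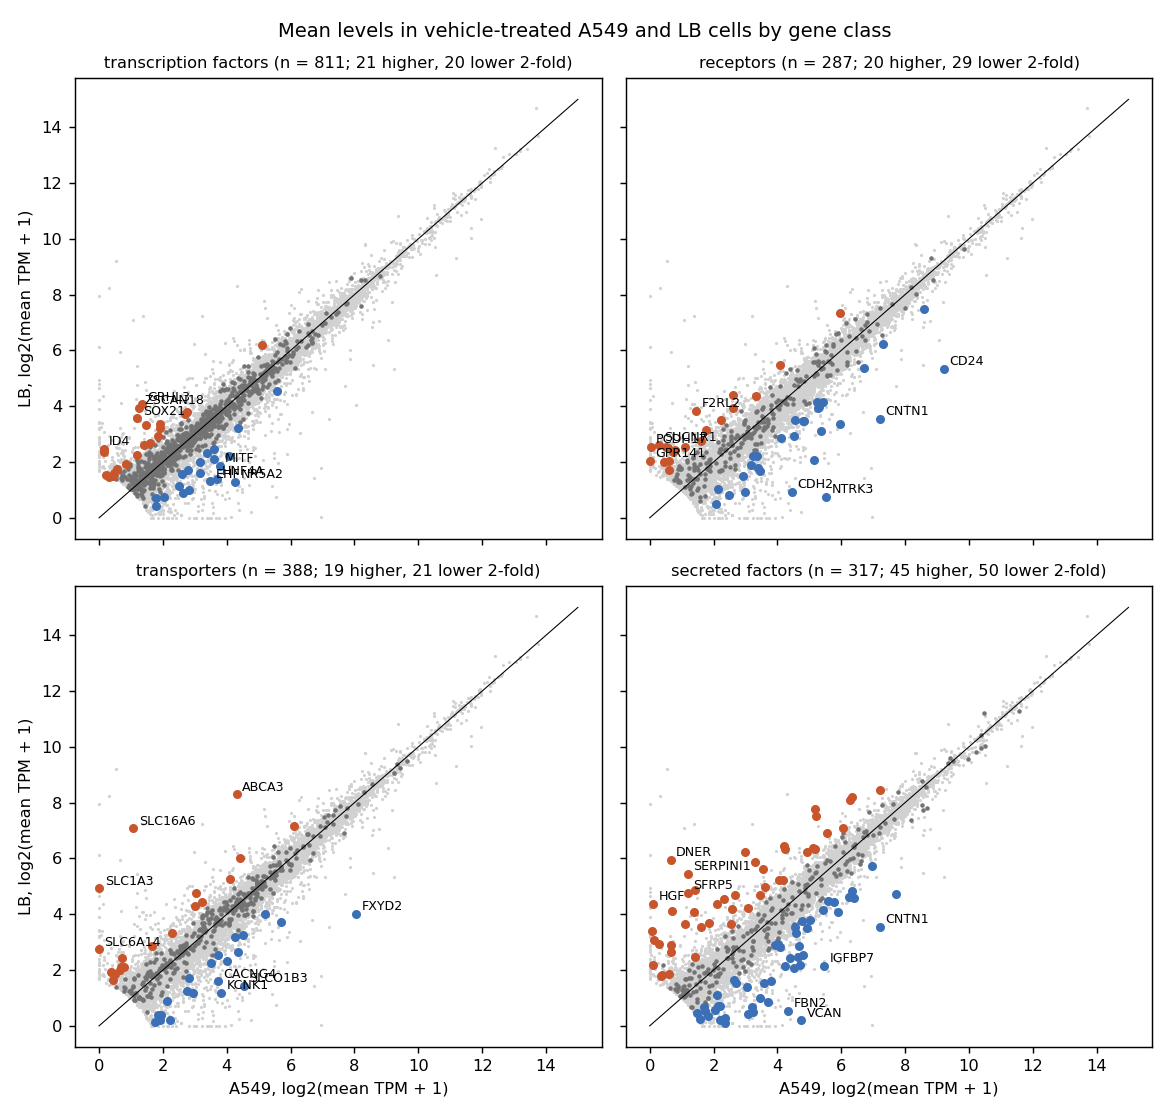
Level of each tested gene in LB (vertical axis) against A549 (horizontal axis), both as log2 of the mean TPM of 3 vehicle libraries plus 1. Pale points are all 13999 genes, dark grey points the members of the class, and orange and blue points the members at least 2-fold higher or lower in LB that passed the test, with the 4 largest differences each way named. Secreted factors have 45 orange and 50 blue points, transcription factors 21 and 20.

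The endoderm lineage factors were mostly lower in LB. Of the 36 lung and gut endoderm factors tested, 20 fell, 5 rose and 11 did not pass (median log2 difference -0.45). HNF4A (chr20:44355700-44434596, plus strand), a nuclear receptor that maintains liver and gut epithelium, was measured at 12.4, 9.48 and 13.6 TPM in A549 and 2.04, 1.34 and 1.54 TPM in LB (log2 difference -2.28 ± 0.14 SE, adjusted p = 1.71e-07). Its 3 LB libraries all lay below the 3 A549 libraries, with a mean 7.21-fold lower. NR5A2 (chr1:200027602-200177424, plus strand), an orphan nuclear receptor of liver and pancreas, fell further, from 19, 15.7 and 19.97 TPM in A549 to 1.61, 1.53 and 1.22 TPM in LB (log2 difference -2.97 ± 0.13 SE, adjusted p = 9e-09). Neither had overlapping groups.

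The other endoderm factors differed in size and direction. GATA6, a zinc finger factor of lung and gut endoderm, was low in both lines, at 2.2, 2.56 and 2.67 TPM in A549 and 0.49, 0.94 and 0.53 TPM in LB (log2 difference -1.08 ± 0.15 SE, adjusted p = 0.000156). FOXA2 (29.3 ± 3.4 to 22.1 ± 0.584 TPM, mean ± SD, n = 3, here and below; adjusted p = 0.00514) and FOXA3 (4.7 ± 2.09 to 1.22 ± 0.338; adjusted p = 0.000662), pioneer factors of endoderm, fell. FOXA1 was the exception in its family: it was higher in LB (11.4 ± 3.06 to 15.2 ± 0.879; adjusted p = 0.0318), with overlapping groups. That call was lost without A549 replicate 1 or 2 or LB replicate 2 or 3, with differences between 0.27 and 0.60 and adjusted p up to 0.119 when 1 library was left out. SOX2 (11.2 ± 2.56 to 4.47 ± 0.406) and SOX9 (8.33 ± 0.428 to 4.92 ± 0.0379), factors of proximal and distal lung epithelium, also fell, as did MNX1 (9.38 ± 1.17 to 4.01 ± 0.864), a homeobox factor of pancreas and motor neurons (adjusted p at most 0.000837). The lung master regulator NKX2-1, which drives surfactant genes in the normal type II cell, was at 0.05, 0 and 0 TPM in A549 and 0.07, 0.11 and 0.03 TPM in LB and was not tested. CEBPA (5.52 ± 0.741 and 6.36 ± 0.41, adjusted p = 0.221), NFIB (7.24 ± 0.536 and 7.41 ± 0.886, adjusted p = 0.866) and ETV5 (23.7 ± 1.23 and 24.9 ± 0.887, adjusted p = 0.569), further factors of alveolar type II cells, did not pass.

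Several epithelial ETS and KLF factors were lower. Of the 34 ETS, KLF and SP factors tested, 12 fell and 4 rose (median -0.23). This list overlaps that of the endoderm factors above: ELF3 and ETV4 are in both, and EHF was counted only with the endoderm factors. EHF (chr11:34621093-34661057, plus strand), an ETS factor of glandular epithelium, was at 10.2, 9.66 and 10.6 TPM in A549 and 1.42, 1.38 and 1.64 TPM in LB (log2 difference -2.17 ± 0.17 SE, adjusted p = 1.21e-06), without overlap. KLF5, which supports growth of gut and airway progenitors, was at 44.9, 46.7 and 47.6 TPM in A549 and 26.2, 20.5 and 20.1 TPM in LB (log2 difference -1.04 ± 0.099 SE, adjusted p = 6.32e-06). ELF3 remained abundant in both lines (295 ± 54.2 to 194 ± 5.69, adjusted p = 0.000838). Among the rises, KLF10 (25.4 ± 1.45 to 31.03 ± 1.83) and ETV4 (46.8 ± 3.01 to 60.7 ± 3.86) had adjusted p at most 0.00453.

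GRHL3 (chr1:24319322-24364482, plus strand), a grainyhead factor of surface epithelium and barrier formation, had the largest rise of any named transcription factor, at 15.9, 17.1 and 14.4 TPM in LB against 1.76, 0.97 and 1.87 TPM in A549 (log2 difference 2.75 ± 0.15 SE, adjusted p = 5.88e-08), 10.3-fold by mean. ZSCAN18, a SCAN-domain zinc finger protein, rose from 1.61, 1.04 and 1.49 TPM in A549 to 15.6, 14.3 and 13.3 TPM in LB (log2 difference 2.703 ± 0.11 SE, adjusted p = 2.77e-09). SOX21, a SOXB2 factor of airway and hair, rose from 1.29 ± 0.601 to 10.9 ± 1.29 TPM. ID4, an inhibitor of basic helix-loop-helix factors, rose from 0.107 ± 0.0451 to 4.59 ± 0.566 TPM (adjusted p at most 2.63e-06), whereas its paralog ID2 fell (69.8 ± 10.8 to 40.2 ± 2.58, adjusted p = 0.000108). All 4 rising genes had LB libraries entirely above those of A549.

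Factors of mesenchymal transition, listed with their epithelial counterparts of the grainyhead and OVOL families, did not move together. Of the 11 tested, 3 rose, 4 fell and 4 did not pass, and 1 of the rises was the epithelial factor GRHL3 described above. SNAI1, a repressor of epithelial genes, rose from 2.32, 1.43 and 1.5 TPM in A549 to 8.81, 7.71 and 10.6 TPM in LB (adjusted p = 2.54e-06). TWIST1, another, rose from 3.33, 2.46 and 2.38 TPM in A549 to 8.51, 8.5 and 10.9 TPM in LB (adjusted p = 9.41e-06). In contrast TWIST2 (11.8 ± 1.02 to 6.23 ± 0.769), TCF3 (61.9 ± 4.76 to 47.2 ± 3.64) and TCF4 (6.11 ± 0.997 to 1.01 ± 0.401), partners of TWIST proteins, and PRRX2 (3.09 ± 0.359 to 1.27 ± 0.163) fell (adjusted p at most 0.00278). The chromatin factor HMGA2, counted in another list, fell (11.1 ± 0.46 to 5.54 ± 1.08, adjusted p = 9.87e-05). Summed epithelial markers were lower in LB (4681–5233 TPM) than in A549 (9623–10320 TPM), with 6 of the 7 past the test, and their part in these differences was not tested.

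Homeobox genes moved both ways, at shares close to those of all genes. Among the 71 tested, 12 rose and 15 fell (16.9% and 21.1%, against 13.8% and 18.8% of all genes tested). IRX3, a patterning factor, rose from 2.75 ± 0.531 to 8.43 ± 0.872 TPM. Of the HOX clusters, HOXD10 (2.02 ± 0.344 to 5.41 ± 0.479) and HOXB8 (22.4 ± 2.29 to 42.9 ± 3.29) rose (adjusted p at most 8.74e-05), whereas no HOXA gene rose and 3 of 9 tested fell. PAX7, the muscle progenitor factor, was low and fell (2.46 ± 0.0503 to 0.34 ± 0.0819, adjusted p = 1.05e-05), as did GLI2 (11.1 ± 1.66 to 3.29 ± 0.356, adjusted p = 2.34e-06), an effector of Hedgehog signalling. MITF, the melanocyte factor that also drives lysosomal genes, fell from 11.3, 16.8 and 9.99 TPM in A549 to 3.17, 2.58 and 2.1 TPM in LB (log2 difference -1.90 ± 0.19 SE, adjusted p = 8.52e-06).

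Factors that respond to stress and other signals included rises in several families. Of the 37 basic leucine zipper factors tested, 12 rose and 4 fell. Examples were ATF5 (30.4 ± 4.18 to 52.96 ± 1.76), a stress-induced factor, XBP1 (62.1 ± 15.01 to 110.3 ± 9.68), the effector of the unfolded protein response, and CEBPB (50.1 ± 4.99 to 74.5 ± 4.02), with adjusted p at most 0.000587. The subunits of the noncanonical NF-kB dimer both rose. NFKB2 was at 28.2, 50.8 and 21.97 TPM in A549 and 71.3, 79 and 67.9 TPM in LB (adjusted p = 0.00092). RELB was at 9.41, 17.5 and 11.1 TPM in A549 and 20.4, 24.2 and 22.3 TPM in LB (adjusted p = 0.00184), and A549 replicate 2 was the highest of its group for each. Among nuclear receptors 9 of 32 rose and 6 fell. NR2F1 (13.4 ± 2.64 to 23.3 ± 1.58) and NR4A2 (2.04 ± 0.712 to 4.77 ± 0.143) were higher in LB, and the thyroid hormone receptor THRA (19.2 ± 2.35 to 8.4 ± 0.69) was lower (adjusted p at most 0.000591). Of the 18 cell cycle and p53 family factors, 12 fell and 2 rose (median -0.30). None of the 18 SMAD, TEAD and TCF/LEF factors rose and 7 fell, with SMAD6, a BMP-induced inhibitor, at 45 ± 2.72 to 28.3 ± 1.83 TPM (adjusted p = 3.25e-05). MYC (100.2 ± 17.9 and 103 ± 3.69, adjusted p = 0.693), STAT3 (92.7 ± 2.31 and 97.95 ± 3.86, adjusted p = 0.33) and YAP1 (42.2 ± 5.18 and 43.6 ± 2.88, adjusted p = 0.68) did not pass.

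**Figure D2:**
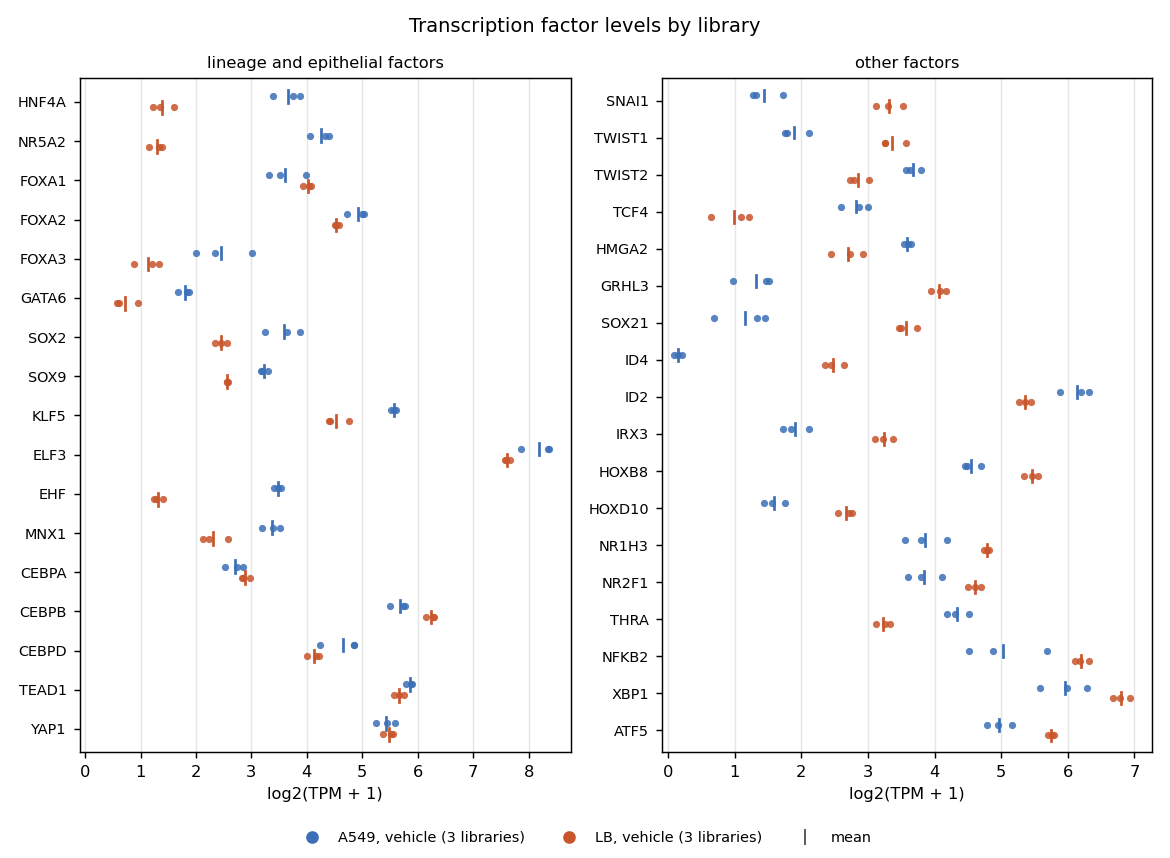
Level of 35 transcription factors in each vehicle library, as log2(TPM + 1), with A549 in blue, LB in orange and a short bar at the mean of the 3 libraries of a group. HNF4A, NR5A2 and EHF have LB points far below the A549 points, GRHL3, SOX21 and ID4 have them far above, and CEBPA and YAP1 have overlapping points.

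Receptor tyrosine kinases, the receptors of most growth factors, were lower in LB in 15 of 30 tested and higher in 4, with 11 not past the test (median -0.24). EGFR (chr7:55019021-55211628, plus strand), the receptor of the epidermal growth factor family, was at 35.8, 43.4 and 32.1 TPM in A549 and 18.6, 15.2 and 16.4 TPM in LB (log2 difference -1.10 ± 0.11 SE, adjusted p = 7.03e-06). Its partner ERBB3 fell from 3.45 ± 0.725 to 1.02 ± 0.516 TPM (adjusted p = 0.000976), whereas ERBB2 (40.5 ± 5.48 and 39.1 ± 1.46) and IGF1R (35.9 ± 5.36 and 35.7 ± 3.29) did not pass (adjusted p = 0.728 and 0.996). FGFR4, an FGF receptor of liver, fell from 45.8, 34.2 and 47.1 TPM in A549 to 17.1, 16.8 and 16.8 TPM in LB (adjusted p = 1.39e-06). EPHB2 (26.9 ± 7.81 to 10.1 ± 0.605, adjusted p = 2.87e-05) and FGFR2 (2.01 ± 0.344 to 0.517 ± 0.0513, adjusted p = 0.000274), an FGF receptor of alveolar progenitors, fell. AXL was at 74.3, 166 and 72.7 TPM in A549 and 40.4, 40.5 and 39.7 TPM in LB (log2 difference -1.24 ± 0.23 SE, adjusted p = 0.00121), with 1 A549 library more than 2-fold above the other A549 libraries and no overlap with LB. NTRK3 fell from 46.4, 43.7 and 45.9 TPM to 1.68, 0.03 and 0.35 TPM, and its ligand NTF3 was listed at 0 in all 6 libraries. The ephrin receptors EPHA5 (1.17 ± 0.382 to 4.87 ± 0.31) and EPHA6 (0.667 ± 0.345 to 4.17 ± 0.291) went the other way (adjusted p at most 5.22e-06).

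Ligands of these receptors were compared with them side by side, in pairs chosen after the values had been seen. HGF was at 0.17, 0.03 and 0.04 TPM in A549 and 18.8, 18.6 and 21.6 TPM in LB, nearly off in A549 and without overlap. MET, its only known signalling receptor, was expressed in both lines and lower in LB, at 53.3, 62.1 and 55.8 TPM in A549 and 40.6, 35.3 and 40.3 TPM in LB (log2 difference -0.55 ± 0.081 SE, adjusted p = 0.00024). Among EGFR ligands, TGFA fell 10.04-fold, from 8.75, 12.4 and 8.74 TPM in A549 to 0.72, 0.83 and 1.43 TPM in LB (log2 difference -2.46 ± 0.19 SE, adjusted p = 8.12e-07). In contrast HBEGF (1.69 ± 0.679 to 4.52 ± 0.49) and EREG (29.5 ± 5.61 to 53.4 ± 4.75) rose (adjusted p at most 0.000221). AREG, the ligand with the highest TPM, rose slightly (109 ± 13.6 to 127 ± 5.66, adjusted p = 0.0321), with overlapping groups and a call that was lost without A549 replicate 1 or 3 or LB replicate 2 or 3 (adjusted p up to 0.118). NRG4 rose from 0.88, 2.23 and 1.72 TPM in A549 to 12.3, 15.7 and 19.7 TPM in LB (log2 difference 2.71 ± 0.19 SE, adjusted p = 4.97e-07), but its receptor ERBB4 was at most 0.01 TPM in every vehicle library. NRG1, a ligand of ERBB3, fell from 79.1, 86.8 and 74.9 TPM in A549 to 27.9, 26.6 and 27.8 TPM in LB (log2 difference -1.51 ± 0.072 SE, adjusted p = 1.38e-08). VEGFC rose from 5.52, 4.63 and 4.78 TPM in A549 to 16.9, 17.4 and 17.4 TPM in LB (log2 difference 1.61 ± 0.073 SE, adjusted p = 8.48e-09). Of its receptors, FLT4 was at 5.58, 4.52 and 4.8 TPM in A549 and 5.9, 6.37 and 3.02 TPM in LB with overlapping groups, KDR was at most 0.03 TPM, and the coreceptor NRP2 fell (38.5 ± 3.97 to 14.7 ± 2.45, adjusted p = 3.4e-06). BDNF (14.1 ± 0.42 to 6.47 ± 0.0608), INHBB (46.7 ± 5.17 to 21.5 ± 0.906) and PDGFC (5.58 ± 0.679 to 1.92 ± 0.0252) were lower in LB (adjusted p at most 0.000354).

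**Figure D3:**
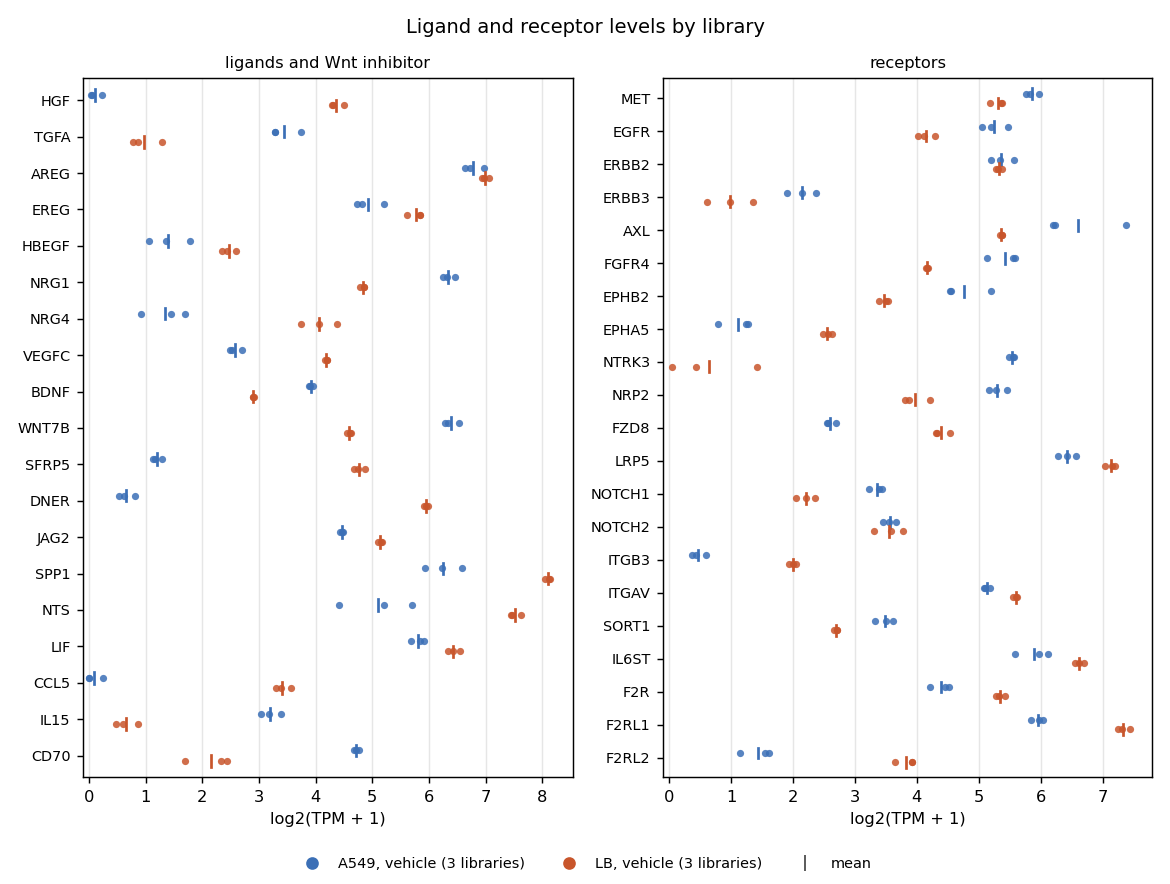
Level of 18 ligands and 1 Wnt inhibitor (left) and 21 receptors (right) in each vehicle library, as log2(TPM + 1), with A549 in blue, LB in orange and a short bar at the mean of 3 libraries. HGF, DNER and CCL5 lie near 0 in A549 and far higher in LB, EGFR, ERBB3, FGFR4 and NTRK3 lie lower in LB, and the groups overlap for ERBB2 and NOTCH2.

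Protease-activated receptors, G protein-coupled receptors that thrombin and trypsin-like proteases switch on by cleavage, rose together. F2RL1 (chr5:76818933-76835315, plus strand) was at 61.6, 56.5 and 64.8 TPM in A549 and 159, 151 and 172 TPM in LB (log2 difference 1.38 ± 0.069 SE, adjusted p = 2.05e-08). F2R (chr5:76716043-76735781, plus strand) was at 20.9, 17.6 and 21.9 TPM in A549 and 39.03, 38.03 and 42.1 TPM in LB (log2 difference 0.95 ± 0.083 SE, adjusted p = 3.07e-06). F2RL2 (chr5:76615482-76623434, minus strand) was at 2.06, 1.21 and 1.92 TPM in A549 and 14.2, 11.5 and 14.1 TPM in LB (log2 difference 2.39 ± 0.14 SE, adjusted p = 7.77e-08). These genes are neighbours on chromosome 5, within a span from 76615482 to 76835315, and none of their groups overlapped. F2R and the block of neighbours were picked after the values were seen. Of the 76 G protein-coupled receptors tested, out of 367 in the table, 19 rose and 13 fell. SUCNR1, the succinate receptor, rose from 0.28, 0.08 and 0.32 TPM in A549 to 4.96, 5.42 and 5.06 TPM in LB (adjusted p = 1.02e-08), and GPR141, listed at 0 in each A549 library, had 3.33, 2.92 and 3.07 TPM in LB. GPR37 also rose (5.08 ± 1.36 to 14.3 ± 2, adjusted p = 1.25e-05). NPY4R, a receptor of pancreatic polypeptide, fell from 31.7, 38.8 and 31.8 TPM in A549 to 3.93, 3.13 and 2.41 TPM in LB (log2 difference -3.09 ± 0.16 SE, adjusted p = 3.14e-08). Because NPY4R has a near-identical copy, how reads were divided between the copies is uncertain. LGR6 (3.22 ± 0.0929 to 0.397 ± 0.0902) and GPRC5B (22.1 ± 4.94 to 6.61 ± 0.818) fell too (adjusted p at most 3.52e-06).

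Adhesion receptors moved both ways. Among 15 integrin subunits tested 6 rose and 4 fell. ITGB4, the hemidesmosomal laminin receptor subunit, fell from 56.5, 74.6 and 52.2 TPM in A549 to 7.38, 11.8 and 9.04 TPM in LB (log2 difference -2.58 ± 0.18 SE, adjusted p = 4.14e-07) and its partner ITGA6 from 27.6 ± 1.26 to 17.1 ± 2.07 TPM (adjusted p = 8.63e-05). ITGB3, part of the vitronectin receptor, rose from 0.5, 0.35 and 0.29 TPM in A549 to 3.01, 3.11 and 2.82 TPM in LB (log2 difference 1.53 ± 0.15 SE, adjusted p = 1.05e-05), with ITGA5, of the fibronectin receptor, at 15.8 ± 0.591 to 25.2 ± 1.4 TPM (adjusted p = 0.000141). ITGAV, the partner of ITGB3, rose less (33.9 ± 1.22 to 47.3 ± 1.14, adjusted p = 0.000234), and CD44, the hyaluronan receptor, fell (387 ± 36.5 to 178.4 ± 3.78, adjusted p = 8.32e-08), with these genes chosen after their values were seen. Among other surface molecules CDH17, the liver and intestine cadherin (6.88 ± 2.68 to 0.9 ± 0.176), CEACAM6 (40.7 ± 11.6 to 7.67 ± 2.24) and EPCAM (9.46 ± 2.48 to 2.43 ± 0.36) fell. CEACAM1 (2.06 ± 0.57 to 5.77 ± 0.917), the protocadherin PCDH17 (0.0233 ± 0.0252 to 4.84 ± 0.8) and the aminopeptidase ANPEP (9.02 ± 0.611 to 19.5 ± 3.29) rose (adjusted p at most 7.86e-05). CEACAM genes are close paralogs, which makes the division of reads among them less certain. The guidance receptors ROBO1 (15.8 ± 4.81 to 43.9 ± 1.08) and UNC5D (0.433 ± 0.0764 to 4.79 ± 0.574) rose, and PLXNB1 (22.5 ± 5.1 to 10.5 ± 0.521) and NEO1 (30.6 ± 1.49 to 16.3 ± 1.62) fell (adjusted p at most 0.000942).

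Several cytokine receptors were higher in LB. Of the 26 cytokine and interferon receptors, 9 rose and 3 fell, and of the 14 TNF receptor superfamily members 5 rose and none fell. IL6ST, the signalling chain shared by the IL-6 family, was at 61.9, 46.9 and 68.7 TPM in A549 and 103, 93.3 and 96.9 TPM in LB (log2 difference 0.73 ± 0.11 SE, adjusted p = 0.000247). IFNGR2 (34.7 ± 3.94 to 66.8 ± 1.73), of the interferon gamma receptor, EPOR (6.34 ± 0.54 to 13.4 ± 0.613), the erythropoietin receptor, and CD40 (4.3 ± 0.838 to 9.07 ± 0.157) rose (adjusted p at most 0.000245), and the interleukin 1 receptor IL1R1 fell (14.2 ± 3.05 to 6.57 ± 0.517, adjusted p = 0.000192). LIF, a ligand that signals through IL6ST, rose from 55.4 ± 4.59 to 85.5 ± 6.73 TPM (adjusted p = 0.000214), with its receptor LIFR at 3.91 ± 0.506 and 5.96 ± 1.56 TPM in A549 and LB, a call (adjusted p = 0.0386) that was lost when any 1 of 5 libraries was left out.

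Wnt and Notch components changed on both the ligand and receptor sides. FZD8, a Wnt receptor, was at 4.86, 4.94 and 5.43 TPM in A549 and 18.8, 18.97 and 22.3 TPM in LB (log2 difference 1.79 ± 0.11 SE, adjusted p = 1.49e-07). The coreceptor LRP5 (85.3 ± 8.28 to 139.8 ± 8.29) and the R-spondin receptor LGR4 (56.2 ± 7.34 to 94.1 ± 6.31) rose (adjusted p at most 0.000276). RNF43, which removes Wnt receptors from the surface, fell (8.48 ± 0.609 to 3.67 ± 1.06, adjusted p = 0.000108). WNT7B, a Wnt ligand of lung epithelium, fell from 79.5, 91.5 and 76.99 TPM in A549 to 23.4, 23.6 and 22.5 TPM in LB (log2 difference -1.79 ± 0.067 SE, adjusted p = 1.74e-09). The secreted Wnt inhibitor SFRP5 rose from 1.2, 1.45 and 1.25 TPM in A549 to 24.6, 25.8 and 28.2 TPM in LB (log2 difference 3.56 ± 0.12 SE, adjusted p = 5e-10), without overlap, while its relative SFRP4 fell (3.18 ± 0.166 to 0.487 ± 0.19, adjusted p = 1.34e-05). NOTCH1 fell from 9.22 ± 0.77 to 3.63 ± 0.48 TPM (adjusted p = 5.26e-06). NOTCH2 (10.8 ± 0.836 and 10.8 ± 1.85) and NOTCH3 (8.18 ± 1.89 and 7.12 ± 0.414) did not pass (adjusted p = 0.982 and 0.439). Of the ligands, DNER, an atypical Notch ligand of neurons, was at 62.1, 59.3 and 60.4 TPM in LB against at most 0.76 TPM in A549. The canonical ligand JAG2, chosen after its values were seen, rose from 20.99 ± 0.43 to 34.2 ± 0.903 TPM (adjusted p = 0.000322), while JAG1 fell (39.9 ± 1.77 to 32.5 ± 1.03, adjusted p = 0.00168). Among lipoprotein receptors LRP10 (69.8 ± 9.34 to 126 ± 2.83) was higher, and VLDLR (10.1 ± 0.356 to 2.24 ± 0.489) and the sorting receptor SORL1 (6.6 ± 1.25 to 1.83 ± 0.102) were lower (adjusted p at most 8.13e-06). The scavenger receptor OLR1, which takes up oxidized LDL, rose from 0.487 ± 0.0777 to 4.64 ± 0.805 TPM (adjusted p = 3.46e-06).

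Several amino acid carriers were higher in LB, with 11 of 29 tested up and 4 down (37.9% and 13.8%, against 13.8% and 18.8% of all genes tested). Of these calls, 8 were lost without some library. SLC1A3 (chr5:36606355-36688334, plus strand), a sodium-coupled glutamate carrier, was at 0, 0.02 and 0 TPM in A549 and 29.03, 24.66 and 34.5 TPM in LB. SLC6A14, a concentrative carrier of neutral and cationic amino acids, was likewise at 0, 0 and 0.01 TPM in A549 and 4.49, 5.36 and 7.22 TPM in LB (adjusted p = 7.52e-08). SLC1A1, another glutamate carrier, rose from 1.77 ± 0.22 to 3.64 ± 0.148 TPM (adjusted p = 0.000678). SLC7A7, which exports cationic amino acids, fell from 17.8, 8.79 and 18.4 TPM in A549 to 4.5, 4.3 and 3.23 TPM in LB (log2 difference -1.62 ± 0.25 SE, adjusted p = 0.000329). SLC7A11, the cystine carrier, did not pass (29.7 ± 3.02 and 32.3 ± 1.58, adjusted p = 0.401).

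Of the 12 monocarboxylate, dicarboxylate and citrate carriers tested, 6 rose and none fell. The rises were led by SLC16A6 at 1.15, 0.73 and 1.43 TPM in A549 and 130.3, 133 and 139 TPM in LB, 122-fold by mean, the largest log2 difference of any transporter (6.02). SLC16A4 (24.6 ± 5.56 to 39.2 ± 1.98) and SLC16A14 (2.02 ± 0.376 to 3.84 ± 0.607) rose too (adjusted p at most 0.00205). The lactate exporter SLC16A3, chosen after its values were seen, rose from 42.9 ± 2.54 to 65.02 ± 5.01 TPM (adjusted p = 2.33e-05), and SLC16A1 did not pass (28.7 ± 2.13 and 28.5 ± 1.18, adjusted p = 0.965). Among sugar carriers, the basal glucose carrier SLC2A1 fell from 90.00, 105 and 93.5 TPM in A549 to 58.9, 59.8 and 62 TPM in LB (log2 difference -0.66 ± 0.067 SE, adjusted p = 9.96e-06). SLC2A12 (0.58 ± 0.276 to 2.98 ± 0.286) and SLC50A1 (44.03 ± 4.29 to 86.7 ± 0.938) rose (adjusted p at most 2.23e-05).

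Organic ion carriers were lower in 7 of 18 tested and higher in 2. SLCO1B3 (chr12:20810702-20916911, plus strand), a liver-type carrier of bile acids and drugs that is also found in lung and gut tumours, fell 13.2-fold, from 19.3, 27.6 and 20.2 TPM in A549 to 2.33, 1.14 and 1.62 TPM in LB (log2 difference -3.12 ± 0.19 SE, adjusted p = 1.13e-07). SLC22A3, an organic cation carrier, fell from 36.9, 32.1 and 38.8 TPM in A549 to 15.8, 14.8 and 14.9 TPM in LB (log2 difference -1.19 ± 0.078 SE, adjusted p = 2.33e-07), and SLCO2B1 rose from 0.4 ± 0.123 to 2.59 ± 0.381 TPM (adjusted p = 5.42e-05). SLC27A2, which imports and activates very long chain fatty acids, fell from 42.9, 64.6 and 46.8 TPM in A549 to 11.4, 12.9 and 12.2 TPM in LB (log2 difference -1.97 ± 0.13 SE, adjusted p = 2e-07). Of the ABC transporters 8 of 29 rose and 3 fell (27.6% and 10.3%, against 13.8% and 18.8% of all genes tested). The multidrug exporters ABCC1 (62.03 ± 5.69 to 47.5 ± 3.12) and ABCC4 (27.01 ± 0.492 to 14.4 ± 0.614) fell (adjusted p at most 0.003). ABCC2 (135 ± 14.99 and 139.8 ± 7.46), ABCC3 (212 ± 30.6 and 182 ± 13.4) and ABCG2 (20.1 ± 3.14 and 21.6 ± 0.57) did not pass (adjusted p at least 0.23).

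Several ion pumps and potassium channels were lower in LB, and several sodium, calcium and water channels higher. Of the 27 ion pumps and flippases tested, 10 fell and 4 rose. FXYD2, the gamma subunit of the sodium pump, was at 249, 272 and 277 TPM in A549 and 16.9, 14.3 and 14.8 TPM in LB, while FXYD5 rose (168 ± 5.06 to 214 ± 18.9, adjusted p = 0.003). Of 20 potassium channel genes tested, 7 fell and 2 rose. KCNK1, a background channel, was at 12.1, 12.6 and 15.2 TPM in A549 and 0.73, 1.4 and 1.66 TPM in LB (log2 difference -2.67 ± 0.16 SE, adjusted p = 1.32e-07). KCNMA1, the large-conductance calcium-activated channel, was at 18.8, 24.1 and 15.7 TPM in A549 and 5.26, 5.57 and 5.03 TPM in LB (log2 difference -1.69 ± 0.18 SE, adjusted p = 1.37e-05). The inward rectifier KCNJ2 rose (0.607 ± 0.12 to 3.33 ± 0.0794, adjusted p = 2.72e-06). Of 37 sodium, calcium and TRP channel genes 11 rose and 7 fell. SCNN1B, a subunit of the sodium channel that clears fluid from the alveolus, rose from a low level (0.48, 0.16 and 0.28 TPM in A549 and 2.88, 2.24 and 3.25 TPM in LB, adjusted p = 5.9e-05). The calcium channel subunits CACNA2D1 (7.24 ± 2.32 to 25.9 ± 4.21) and CACNG6 (16.1 ± 5.27 to 37.04 ± 0.555) rose. CACNG4 (12.3 ± 1.17 to 2.02 ± 0.479), TRPC6 (3.62 ± 0.465 to 0.15 ± 0.0458) and the sodium channel SCN9A (2.63 ± 0.156 to 0.313 ± 0.0404) fell (adjusted p at most 0.000162). AQP3, a water and glycerol channel of airway epithelium, rose from 17.1, 15.02 and 28.6 TPM in A549 to 58.4, 59.8 and 72.8 TPM in LB (log2 difference 1.65 ± 0.22 SE, adjusted p = 0.0001). GJA1, the gap junction protein connexin 43, rose from 71.8, 54.6 and 76.2 TPM in A549 to 139, 139 and 144 TPM in LB (log2 difference 1.06 ± 0.094 SE, adjusted p = 3.38e-06). The bicarbonate family member SLC4A11 (8.35 ± 0.429 to 20.9 ± 0.755) and the sulfate carrier SLC26A2 (6.97 ± 0.183 to 18.8 ± 0.746) rose (adjusted p at most 3.36e-06). CFTR, the chloride channel of airway epithelium, averaged 0.60 TPM in A549 and 0.01 TPM in LB. SLC34A2, the phosphate carrier of alveolar type II cells, was at most 0.18 TPM, and neither was tested.

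**Figure D4:**
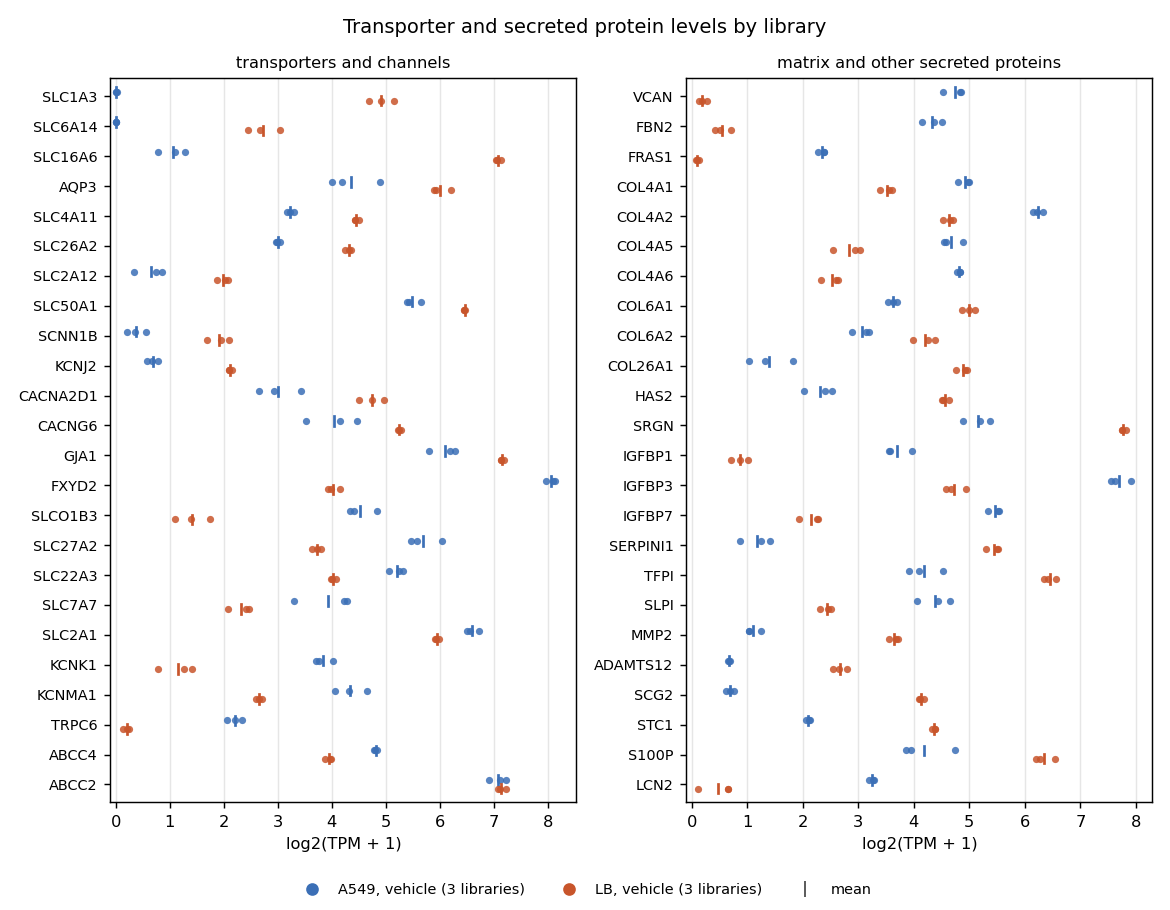
Level of 24 transporters and channels (left) and 24 matrix and other secreted proteins (right) in each vehicle library, as log2(TPM + 1), with A549 in blue, LB in orange and a short bar at the mean of 3 libraries. SLC1A3 and SLC6A14 lie at about 0 in A549 and VCAN and FRAS1 near 0 in LB, all 4 type IV collagen genes lie lower in LB, and the groups overlap for ABCC2.

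The type IV collagen genes COL4A1, COL4A2, COL4A5 and COL4A6 were lower in LB, while other matrix genes moved both ways. Of the 42 laminins, fibrillins and other matrix glycoproteins tested, 10 rose, 15 fell and 17 did not pass (median log2 difference 0.04). Type IV collagen is the network of the basement membrane, and its genes lie in head-to-head pairs. COL4A5 (chrX:108439844-108697545, plus strand) was at 28.7, 22.3 and 22.8 TPM in A549 and 7.17, 4.81 and 6.71 TPM in LB (log2 difference -1.83 ± 0.21 SE, adjusted p = 2.71e-05). Its neighbour COL4A6 (chrX:108155607-108439497, minus strand) was at 26.5, 27.4 and 27.4 TPM in A549 and 5.03, 4.01 and 5.21 TPM in LB (log2 difference -2.29 ± 0.1 SE, adjusted p = 8.82e-09). None of the groups overlapped. The pair on chromosome 13 was also lower. COL4A1 was at 26.9, 30.9 and 30.4 TPM in A549 and 11.2, 9.53 and 10.7 TPM in LB (log2 difference -1.40 ± 0.091 SE, adjusted p = 2.15e-07). COL4A2 was at 73.5, 79.2 and 69.8 TPM in A549 and 24.2, 21.9 and 25.1 TPM in LB (log2 difference -1.60 ± 0.068 SE, adjusted p = 5.48e-09), and again no groups overlapped. FRAS1, a basement membrane protein of epithelium, fell from 4.23, 3.82 and 4.19 TPM in A549 to 0.07, 0.06 and 0.09 TPM in LB (log2 difference -2.24 ± 0.14 SE, adjusted p = 1.32e-07). FBN2, of elastic microfibrils, fell from 19.3 ± 2.45 to 0.463 ± 0.159 TPM (adjusted p = 1.04e-09). In contrast the type VI collagen genes, neighbours on chromosome 21, rose. COL6A1 was at 11.3, 12.01 and 10.6 TPM in A549 and 30.9, 33.4 and 28.2 TPM in LB (adjusted p = 1.52e-07) and COL6A2 went from 7.46 ± 0.928 to 17.6 ± 2.48 TPM (adjusted p = 2.83e-05). COL26A1 rose from 1.49, 1.05 and 2.54 TPM in A549 to 29.4, 29.9 and 26.1 TPM in LB (adjusted p = 1.12e-08). Over the 17 collagens tested, 5 rose and 7 fell.

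Since COL4A5 and COL4A6 fell together, the stretch that lies between their starts is shown. RefSeq places the nearest starts 380 bases apart, and the sequence is the 250 bases before the COL4A5 start, chrX:108439588-108439837 on GRCh38.p14, read on the plus strand (COL4A6 is transcribed away from it on the minus strand), with CCAAT on either strand in capitals.
COL4A5-COL4A6: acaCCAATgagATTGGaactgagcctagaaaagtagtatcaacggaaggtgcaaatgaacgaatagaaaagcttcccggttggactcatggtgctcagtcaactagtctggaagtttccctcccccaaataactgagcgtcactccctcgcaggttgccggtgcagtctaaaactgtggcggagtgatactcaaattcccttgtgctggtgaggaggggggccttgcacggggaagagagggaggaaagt
The stretch holds CCAAT 2 times, once on each strand, and the GC box GGGCGG on neither. Of all 35116 promoter windows of the same length in RefSeq's table, 9.53% hold CCAAT at least 2 times and 42.6% hold GGGCGG at least once, counted on both strands. The windows of COL4A1 and COL4A2, whose RefSeq starts are 127 bases apart, are not printed because annotated exons overlap there. A match is a description of letters only.

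Hyaluronan and proteoglycan genes also moved both ways. Of 7 tested, 4 rose and 2 fell. VCAN, the large hyaluronan-binding proteoglycan, was at 27.6, 21.9 and 27.9 TPM in A549 and at most 0.21 TPM in LB. The intracellular granule proteoglycan SRGN rose from 35.6, 28.7 and 40.6 TPM in A549 to 215, 225 and 214 TPM in LB (log2 difference 2.62 ± 0.1 SE, adjusted p = 2.02e-09). The small leucine-rich proteoglycan LUM (0.27 ± 0.151 to 2.44 ± 0.506) rose from a low level (adjusted p = 9.35e-05). The hyaluronan synthase HAS2 rose from 4.26, 3.08 and 4.77 TPM in A549 to 22.1, 21.8 and 23.8 TPM in LB (log2 difference 2.24 ± 0.13 SE, adjusted p = 6.01e-08). HAS3 fell from 37.6, 55.5 and 31.2 TPM in A549 to 24.2, 23.1 and 20.9 TPM in LB (log2 difference -0.80 ± 0.15 SE, adjusted p = 0.00159). The hyaluronan receptor CD44, given above, fell. SPP1, or osteopontin, a matrix phosphoprotein that binds ITGAV and ITGB3 as well as CD44, rose from 74.2, 60.1 and 94.4 TPM in A549 to 263, 278 and 276 TPM in LB (log2 difference 1.85 ± 0.11 SE, adjusted p = 1.24e-07).

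Proteins that hold insulin-like growth factors were lower. Of the 10 IGF binding and CCN proteins tested, 6 fell and 1 rose. IGFBP3 (chr7:45912245-45921874, minus strand) was at 187, 197 and 239 TPM in A549 and 22.9, 29.6 and 24.4 TPM in LB (log2 difference -2.97 ± 0.1 SE, adjusted p = 9.64e-10), a mean 8.11-fold lower. IGFBP1, next to it on chromosome 7, was at 10.8, 14.6 and 10.8 TPM in A549 and 0.64, 0.83 and 1.02 TPM in LB (log2 difference -2.83 ± 0.17 SE, adjusted p = 1.41e-07). IGFBP7 fell from 45.2, 39.5 and 45.02 TPM in A549 to 2.8, 3.8 and 3.81 TPM in LB (log2 difference -3.31 ± 0.12 SE, adjusted p = 1.31e-09). The rise was CTGF (12.7 ± 3.88 to 23.2 ± 2.44, adjusted p = 0.00137), a CCN protein. The ligand IGF1 was at most 0.14 TPM. IGF2 rose from 1.35 ± 0.738 to 3 ± 0.886 TPM (adjusted p = 0.0219), but the difference was 0.51 without A549 replicate 2 and the call was lost without it or without LB replicate 3. In the TGF-beta superfamily and its inhibitors 4 of 24 rose and 7 fell (16.7% and 29.2%, against 13.8% and 18.8% of all genes tested). FST, or follistatin, which binds activins, fell from 18.8, 13.8 and 21.7 TPM in A549 to 3.96, 3.66 and 2.81 TPM in LB (log2 difference -2.08 ± 0.17 SE, adjusted p = 1.8e-06). CHRDL2, a chordin-like BMP inhibitor, rose from 0.25, 0.17 and 0.29 TPM in A549 to 7.09, 5.05 and 7.61 TPM in LB (log2 difference 2.60 ± 0.16 SE, adjusted p = 1.11e-07).

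Protease inhibitors and proteases moved both ways. TFPI, the inhibitor of tissue factor, rose from 16.1, 14.01 and 22.1 TPM in A549 to 80.5, 84.8 and 93.7 TPM in LB (log2 difference 2.27 ± 0.13 SE, adjusted p = 5.81e-08). The leukocyte protease inhibitor SLPI of airway secretions fell from 15.6, 20.8 and 24.1 TPM in A549 to 3.98, 4.5 and 4.71 TPM in LB (log2 difference -1.95 ± 0.13 SE, adjusted p = 3.37e-07). SERPINB1 fell from 94.8 ± 6.8 to 55.3 ± 2.48 TPM (adjusted p = 1.12e-06). CST1, a cystatin, rose from 0.593 ± 0.315 to 6.39 ± 1.06 TPM (adjusted p = 5.85e-06). The proteases HTRA3 (2.61 ± 1.14 to 11.8 ± 1.41), ADAMTS12 (0.593 ± 0.0208 to 5.34 ± 0.54) and MMP17 (17.7 ± 2.38 to 28.9 ± 0.824) rose. ADAMTS9 (4.17 ± 0.557 to 0.207 ± 0.0651), PRSS3 (7.55 ± 2.5 to 0.357 ± 0.15) and MMP24 (41.7 ± 2.64 to 16.9 ± 1.89) fell (adjusted p at most 0.000175). PRSS3, a trypsinogen, has close paralogs, so its level is less certain.

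SERPINI1, or neuroserpin, an inhibitor of tissue plasminogen activator, lies head to head with PDCD10, a gene of vascular stability, and the genes are known to share a promoter region. SERPINI1 (chr3:167735243-167825568, plus strand) was at 1.36, 0.82 and 1.65 TPM in A549 and 38.2, 44.2 and 44.8 TPM in LB, without overlap. PDCD10 (chr3:167683298-167734939, minus strand) was at 46.7, 47.8 and 53.4 TPM in A549 and 53.2, 52 and 55.2 TPM in LB (log2 difference 0.12 ± 0.059 SE, adjusted p = 0.151) and did not pass. The pair was chosen after the values were seen. The stretch between the genes is shown because only SERPINI1 passed the test across it. It is RefSeq's, chr3:167734940-167735142 on GRCh38.p14, minus strand (the PDCD10 strand), 203 bases outside all annotated exons, with CCAAT on either strand in capitals.
PDCD10-SERPINI1: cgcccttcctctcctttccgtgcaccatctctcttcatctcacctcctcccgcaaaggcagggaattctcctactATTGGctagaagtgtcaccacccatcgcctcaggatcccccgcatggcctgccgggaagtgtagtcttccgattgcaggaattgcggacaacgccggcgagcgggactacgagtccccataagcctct
CCAAT occurs 1 time in it, and 32.0% of all 35116 windows of 250 bases hold at least 1.

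Many hormones and neuropeptides were higher in LB, with 12 of 23 tested up and 4 down. SCG2, a granin of secretory granules, rose 26.8-fold, from 0.69, 0.53 and 0.62 TPM in A549 to 16.3, 15.96 and 17.1 TPM in LB (log2 difference 3.44 ± 0.088 SE, adjusted p = 4.96e-11). NTS, or neurotensin, a gut peptide, was at 35.9, 20.2 and 51.3 TPM in A549 and 175, 197 and 173 TPM in LB (log2 difference 2.41 ± 0.23 SE, adjusted p = 6.24e-06), with the 3 A549 values spread widely but all below LB. Its high-affinity receptor NTSR1 was at most 0.27 TPM, and the sorting receptor SORT1, which also binds it, fell (10.2 ± 1.1 to 5.46 ± 0.0982, adjusted p = 2.71e-05). STC1, or stanniocalcin, rose from 3.3, 3.39 and 3.16 TPM in A549 to 19.9, 19.8 and 19.01 TPM in LB (log2 difference 2.26 ± 0.07 SE, adjusted p = 2.97e-10). The peptide-processing enzyme CPE rose from 4.81 ± 1.4 to 11.4 ± 3.05 TPM, and GAL, or galanin, and the parathyroid hormone-related peptide PTHLH fell (7.23 ± 3.1 to 1.63 ± 0.424 and 12 ± 1.34 to 5.59 ± 1.08, adjusted p at most 0.00143). Of 8 neuroendocrine markers 3 were tested and rose, CHGA, CHGB and SYP, and the summed level of the 8 went from 8.12–12.7 TPM to 32.2–34.2 TPM. The peptide GRP was listed at 0 in all 6 libraries and NCAM1, CALCA and INSM1 stayed under 1 TPM. The part of these markers in the peptide result was not tested.

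Several chemokines and cytokines were lower. Among 15 interleukins, interferons and TNF family ligands 7 fell and 3 rose, and among 9 chemokines 5 fell and 1 rose. Without some library, 3 of the chemokine calls were lost. CXCL1 (23.03 ± 3.63 to 9.02 ± 1.46, adjusted p = 1.65e-05) kept its call. The falls of CXCL8 (adjusted p = 0.0135) and CCL2 (adjusted p = 0.0412) were lost without A549 replicate 2, and that of CCL2 also without several other libraries. IL15, a growth factor of lymphocytes, was at 8.04, 7.19 and 9.48 TPM in A549 and 0.83, 0.39 and 0.52 TPM in LB (log2 difference -2.55 ± 0.18 SE, adjusted p = 4.32e-07). CD70, a TNF family ligand that stimulates T cells, was at 25.3, 26.1 and 24.6 TPM in A549 and 4, 4.39 and 2.23 TPM in LB (log2 difference -2.57 ± 0.19 SE, adjusted p = 7.28e-07). Neither had overlapping groups. IL15RA was at 1.98 ± 0.752 and 2.8 ± 0.257 TPM in A549 and LB, and CD27, the receptor of CD70, at most 0.23 TPM. The rising chemokine was CCL5, at 0.18, 0 and 0 TPM in A549 and 9.45, 10.8 and 8.81 TPM in LB (adjusted p = 5.48e-09). Its receptors CCR1 and CCR3 were listed at 0 in all 6 libraries. The macrophage growth factor CSF1 rose from 11.4 ± 0.798 to 20.9 ± 1.48 TPM (adjusted p = 2.32e-05). The secreted guidance protein SEMA3B fell from 21.7, 23.9 and 20.7 TPM in A549 to 3.63, 3.2 and 2.89 TPM in LB (log2 difference -2.45 ± 0.14 SE, adjusted p = 8.95e-08), and its relative SEMA3A rose from 17.03 ± 3.35 to 36.95 ± 2.66 TPM (adjusted p = 1.71e-05).

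Plasma and antimicrobial proteins split. In the coagulation, complement and plasma protein list 11 of 29 rose and 6 fell. The acute phase genes SAA1 and LBP were higher in LB. SAA1 was at 0, 0 and 0.32 TPM in A549 and 8.64, 8.59 and 4.94 TPM in LB (adjusted p = 4.29e-06). LBP was at 0.07, 0 and 0.17 TPM in A549 and 3.56, 3.64 and 3.38 TPM in LB (adjusted p = 8.37e-08). VTN, or vitronectin, a ligand of ITGB3, rose from 10.02 ± 2.17 to 24.97 ± 2.24 TPM (adjusted p = 0.000164). The plasma proteins APOH (24.1 ± 9.72 to 4.55 ± 1.61), PLG (2.22 ± 0.672 to 0.583 ± 0.252) and C4BPB (2.51 ± 1.98 to 0.263 ± 0.0551) fell (adjusted p at most 0.00344). LCN2, an iron-sequestering antimicrobial protein, fell from 8.14, 8.73 and 8.6 TPM in A549 to 0.57, 0.58 and 0.08 TPM in LB (log2 difference -2.77 ± 0.17 SE, adjusted p = 1.47e-07). The mucins MUC13 (11.1 ± 1.77 to 1.88 ± 0.248) and MUC5B (15.8 ± 3.11 to 6.07 ± 2.16) fell (adjusted p at most 0.00522). None of the 10 mucins, secretoglobins and trefoil factors tested rose. Of 15 S100 proteins and galectins 9 fell and 3 rose. S100P rose from 14.4, 13.6 and 25.6 TPM in A549 to 72.7, 75.9 and 92.8 TPM in LB (log2 difference 2.16 ± 0.19 SE, adjusted p = 3.89e-06). The galectin LGALS8 rose from 29.1 ± 1.61 to 74.6 ± 7.39 TPM, while S100A16 fell from 289 ± 37.5 to 164 ± 3.01 TPM (adjusted p at most 5.74e-06). MDK, or midkine, a heparin-binding growth factor, rose from 33.5 ± 6.24 to 81.9 ± 5.47 TPM (adjusted p = 2.67e-06).

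Few genes were strictly present in 1 line. With under 0.5 TPM in all 3 libraries of one line and at least 5 TPM in all 3 of the other, 7 genes were on in LB and 7 in A549. Those on in LB included the surfactant genes SFTPB and SFTPD. SPTSSB, a small subunit of the enzyme that starts sphingolipid synthesis, was at 0, 0 and 0.14 TPM in A549 and 6.23, 5.47 and 13.9 TPM in LB. The others were the class members SLC1A3, HGF, CHRDL2 and CCL5. Those on in A549 were VCAN, the sialyltransferase ST6GAL2 (7.98, 6.62 and 10.3 TPM against at most 0.27 TPM), the sarcoglycan SGCD (9.83, 10.8 and 12.2 TPM against at most 0.23 TPM), the cancer-testis antigen MAGEA6, the adhesion molecule KIRREL3 (10.2, 14.5 and 7.97 TPM against at most 0.43 TPM), and the noncoding LINC02532 and LINC02582. MAGEA6 has near-identical copies. No transcription factor and no receptor met this rule in either direction.

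The differences were spread unevenly over the chromosomes. The chromosomes and stretches described were chosen after the values were seen, and no test was made. On chromosome 6, 254 of 683 genes tested rose (37.2%) and 49 fell, against 12.6% and 19.4% of genes elsewhere, and 74.4% of its genes had a difference above 0 (median 0.21). In runs of at least 50 neighbouring tested genes, all 13 runs of chromosome 6 had a median above 0, from 0.12 to 0.32. Each LB vehicle library showed it, with chromosome 6 medians of 0.22, 0.20 and 0.21 relative to the A549 mean. Single A549 libraries, each set against the other A549 libraries, lay between -0.03 and 0.04. The 6 drug-treated LB libraries lay between 0.16 and 0.22 relative to the A549 mean. Chromosome 1 was cut into 2 stretches where its run medians changed sign. By that cut, the 15 runs from WASH7P to GDAP2 all had a median below 0, and 10 of the 12 runs from WDR3 to PGBD2 had one above 0. Runs below 0 were common: the median over all 267 runs was -0.05. Chromosomes 13, 15, 16, 18, 21 and 22 had no run above 0. Gene copy number was not measured, and its part in these differences was not tested.

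Class members followed this to different degrees. Of the 17 secreted factors tested on chromosome 6, 4 rose and 5 fell (median -0.09), against 84 and 104 of 300 elsewhere. Of the 12 receptors there 5 rose and 2 fell, against 70 and 73 of 275 elsewhere. Of the 42 transcription factors there 11 rose and 4 fell, against 129 and 112 of 769 elsewhere. Of the 20 transporters there 12 rose and 4 fell, against 75 and 67 of 368 elsewhere. GJA1, SLC2A12, SLC25A27 and SLC35B2 (47.7 ± 3.1 to 73.5 ± 0.34, adjusted p = 3.82e-06) were among the transporters. FOXF2 (7.95 ± 0.996 to 3.04 ± 0.272, adjusted p = 9.61e-06), FOXQ1 (3.06 ± 0.186 to 0.68 ± 0.278, adjusted p = 4.88e-05) and SLC22A3 lie on chromosome 6 and fell. The numbered ZNF zinc finger genes, mostly repressors of transposable elements that sit in clusters on chromosome 19, formed a further group: 48 of the 144 tested on chromosome 19 rose and 2 fell (median 0.20), against 10 and 12 of the 206 on other chromosomes. ZNF790 was nearly off in A549 and rose, at 0, 0.17 and 0.16 TPM in A549 and 3.05, 4.54 and 4.76 TPM in LB (adjusted p = 1.18e-06). Rises were also seen for ZNF616 (0.47 ± 0.0361 to 2.33 ± 0.513) and ZNF583 (1.68 ± 0.76 to 5.16 ± 0.724), both on chromosome 19 (adjusted p at most 0.000304). Genes of chromosome 19 other than the numbered ZNF genes were closer to balance, with 140 rises among 799 (17.5%) and 15.4% falling. Over all numbered ZNF genes, 58 rose and 14 fell, and 31 of these calls were lost without some library. Over all genes tested, 1419 of the 4563 calls were lost in this way. ZNF genes are close paralogs, so the division of reads among them is less certain.

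**Figure D5:**
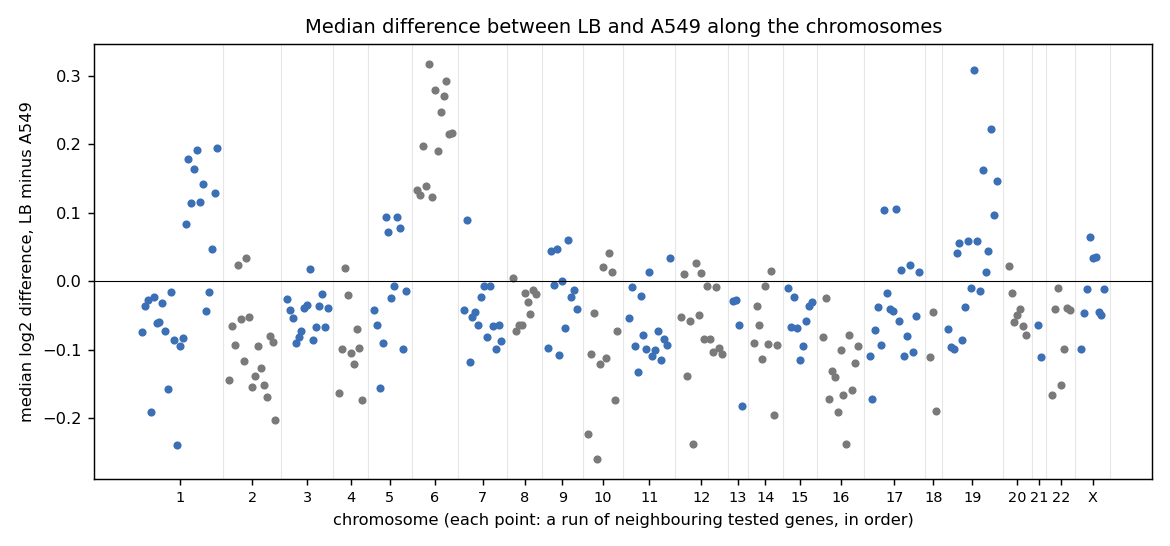
Median log2 difference, LB minus A549, in 267 runs of at least 50 neighbouring tested genes (vertical axis), in order along each chromosome (horizontal axis), with alternating colours for alternate chromosomes. All 13 points of chromosome 6 lie above 0, and most later points of chromosome 1 and 2 runs of chromosome 19 lie high. All points of chromosomes 13, 15, 16, 18, 21 and 22 lie below 0.

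Most named genes that differed between the vehicle groups kept that direction in the drug-treated LB libraries. Of the 337 named genes that passed the test, 306 had all 6 drug-treated LB libraries on the same side of the 3 A549 libraries as LB vehicle, 29 overlapped A549, and 2 lay on the other side. Among the last was the lysosomal sugar carrier SLC2A6, at 15.7, 18.1 and 15.9 TPM in A549 and 13.7, 12.8 and 12.8 TPM in LB in the vehicle groups and 30.1 to 41.2 TPM with drug, whose vehicle call was lost without A549 replicate 2. HTRA3, at 11.2, 10.8 and 13.4 TPM in LB vehicle, ranged from 2.23 to 4.96 TPM with drug. These libraries share the LB line and differ in treatment, so they add no untreated replicate. Most of the 337 genes were named for their vehicle difference, against the same 3 A549 libraries. The drug-treated libraries also entered the test's estimate of spread. The 306 are therefore no separate support for the calls, and the share over all genes tested was not computed.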

How the data were processed

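The authors deposited 1 table of TPM values, 1 row per gene symbol and 1 column per library. Per the submitters' processing notes the aligner was STAR 2.7.3a, the estimator RSEM 1.3.1 and the build GRCh38. Per the labels' protocols, stranded mRNA libraries were made, and the design text gives 100-bp pairs. RSEM divides reads shared between genes by estimate, so genes with close copies are less certain. TPM keeps no depth, so no count model or counting interval was used. Of 57189 rows, 37 held no value.

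Values were taken as log2(TPM + 1), and genes averaging 1 TPM or more over the 6 vehicle libraries were kept. limma 3.58.1 (R 4.3.3) fitted 1 linear model to all 4 groups, which leaves 8 residual degrees of freedom, and its empirical Bayes step used a trend of variance on the mean. Two-sided p-values for LB minus A549 vehicle were adjusted by Benjamini-Hochberg over all 13999 genes, with a threshold of 0.05. The script was tested on simulated data. The median residual SD was 0.128.

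Positions come from GENCODE 29 (GRCh38), in which 56815 symbols were found once. Promoter windows are RefSeq's, on GRCh38.p14, and 262 of the 358 named genes had one. Motifs were searched on both strands. Runs are consecutive sets of at least 50 tested genes along a chromosome.

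The classes, lists and members were chosen with earlier results of these data known. Genes were named by rule: per class the 10 largest rises and falls among called genes whose groups did not overlap, averaging 5 TPM or more in the higher group, per list up to 3 each way at 2 TPM, and a fixed set of factors, receptors and carriers whatever their values. Surfactant genes, pseudogenes, antisense and placeholder names and Y-linked genes were passed over. Outside that rule, AREG, CD44, COL4A1, F2R, FLT4, IGF2, IL15RA, ITGAV, JAG1, JAG2, LIFR, PDCD10, SLC16A1, SLC16A3, TCF3, the fibroblast and leukocyte markers, and the ligands and receptors given under 1 TPM beside a partner, were chosen after their values were seen. The hepatocyte and gastrointestinal markers were also added after their values were seen. Alternatives changed the pseudocount, filter, scaling, variance model, libraries in the fit and replicate block, and left out each of the 12 libraries in turn. Some genes are not reported here.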

Additional observations from a re-analysis of the deposited data

How the results depend on the processing

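None of the 337 calls among genes named by rule changed sign under any alternative run. Of the 17 such genes tested that did not pass, 9 changed sign under some alternative. Without 1 library at a time they ranged from -0.030 to 0.129 for ABCC2, -0.131 to 0.057 for ERBB2, -0.112 to 0.0998 for IGF1R, -0.056 to 0.192 for MYC, -0.029 to 0.117 for NFIB, -0.112 to 0.116 for NOTCH2, -0.279 to 0.0005 for NOTCH3, -0.056 to 0.146 for SOX4 and -0.040 to 0.134 for YAP1. Median-of-ratios scaling gave 0.0013 for ERBB2 and 0.036 for NOTCH2, quantile normalization 0.0020 and 0.048, and removal of mitochondrially encoded genes -0.0014 for IGF1R. The cause was not tested. The settings that moved a count by over 1.5 times were a pseudocount of 5, which left 115 genes at least 2-fold higher in LB and 187 lower (281 and 424 as reported), and a stricter filter of 5 TPM on average, which tests fewer genes and left 160 and 262, with 83 transcription factors higher. Without 1 library at a time, 1598 to 1902 genes were higher and 2102 to 2605 lower, of which 265 to 312 and 417 to 441 by at least 2-fold. Transcription factors ranged from 103 to 136 higher and 88 to 113 lower, receptors from 68 to 77 and 62 to 77, transporters from 66 to 88 and 53 to 71, and secreted factors from 77 to 86 and 101 to 110. Of the 337 named calls, 33 were lost without some library. The share of calls that were higher in LB was 42.4% on TPM as deposited, 51.6% under median-of-ratios scaling and 51.7% under quantile normalization: lower calls outnumbered higher ones as reported (1935 higher, 2628 lower), and higher calls outnumbered lower ones under both scalings (2340 and 2192, 2420 and 2264). With only the 6 vehicle libraries in the fit, 1573 genes were higher and 2239 lower, and 81.5% of the reported calls were shared. With the replicate number as a block, 1963 genes were higher and 2653 lower. The numbers were not shown to pair the libraries: deviations of same-numbered libraries correlated at 0.089, 0.01 and 0.129, and A549 replicate 2 correlated best with LB replicate 1 (0.033). Depth cannot be had from TPM, so how firmly values near 0 are measured is unknown.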
